A study of Mus musculus with 4 samples.

Results

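Transcripts of 10 genes of insulin and insulin-like growth factor (IGF) signalling were read in primary cultures of mouse cerebral cortex: the ligand gene Igf1, the receptor genes Igf1r and Insr, the adaptor genes Irs1 and Irs2, and the binding protein genes Igfbp2, Igfbp3, Igfbp4, Igfbp5 and Igfbp7. The members were all probe sets of the array whose single annotated gene symbol is 1 of these 10, which gave 28 probe sets of the 45037 that are not controls. Neuron cultures (2 arrays) came from C57BL6 fetuses at day 16 of gestation and were grown for 7 days in vitro in a medium of 19.4 mM glucose and 4 mM glutamine with 1% fetal serum from calves, to which insulin, transferrin, progesterone, putrescine and selenite had been added. Astrocyte cultures (2 arrays) came from newborn C57BL6 mice and were grown for 20 days, by the series description, in a medium of 33 mM glucose and 2 mM glutamine with 10% of the same serum. The protocol text, which the labels repeat for all samples, instead names a single shorter culture period, near the one stated for neurons. The labels name no genetic change and no agent beyond the media in either group. Cell type thus changed together with donor age, serum, glucose, added insulin and time in culture, and these cannot be told apart.

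Insulin and IGF1 bind related receptor tyrosine kinases, the insulin receptor and the IGF1 receptor. The activated receptors phosphorylate the adaptors IRS1 and IRS2, which recruit PI3-kinase and so activate Akt; Akt in turn holds FoxO transcription factors out of the nucleus. The IGF binding proteins are secreted and hold IGFs outside the cell, which can limit or prolong their action; in brain, IGF1 is known to promote the survival and growth of neurons.

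The replicates of a group were close (correlation of log2 values across probe sets, which are not independent replicates, 0.980 within neurons, 0.983 within astrocytes and 0.669 to 0.682 between groups). Markers fitted the labelled cultures in part. By the test described below, 31.0% of all genes tested were higher in neurons and 31.1% lower. All 10 neuron markers were higher in neurons, with summed signals of 28506 and 27901 in neurons and 1704 and 1484 in astrocytes. Most of the astrocyte sums was Map2 (1487 and 1269, against 4706 and 4989 in neurons), named after its values were seen. Of 10 astrocyte markers 7 were lower in neurons and 2 were higher there, with sums of 8697 and 9998 against 19631 and 20072. Gfap, the intermediate filament of astrocytes, stood at 2 and 109 in neurons, against 1744 and 2133 in astrocytes, so the neuron arrays differed from each other. Aqp4 had 551 and 701 in neurons, well above background, against 4668 and 3859. The 2 higher in neurons, named after their values were seen, were Slc1a2 (1832 and 1865 against 431 and 379) and Aldoc (2574 and 3422 against 1842 and 2076). The titles call the arrays biological replicates but do not say from which animals, so p-values measure the spread between these samples.

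Of the 10 members, 8 were lower in neurons than in astrocytes, 1 (Igf1) was higher in neurons and 1 (Igfbp4) did not pass the test. Each gene was read by the brightest, on average, of its probe sets that could be tested, and the test was limma's moderated test on log2(signal + 12.5), called at an adjusted p under 0.05. Among all 12040 genes tested, 31.1% were called lower in neurons and 31.0% higher in neurons. The median log2 fold change, neurons minus astrocytes throughout, was -1.80 over the 10 members and 0.02 over all genes tested. The members were chosen with results of these data known, so these counts are a description. Of the 28 probe sets, 20 were bright enough to be tested; of these, 13 were called lower in neurons, against 27.7% of all probe sets tested, 2 were called higher in neurons, against 29.4%, and 5 were not called. Of these 20, 18 lay at or above the array median on all 4 arrays, and none had both arrays of its lower group under it. The main probe sets of all 10 genes did not overlap between groups, against 81.9% of all genes tested, nor did 17 of the 20 probe sets, against 78.3%. In bulk cultures, fewer cells of a type and less RNA per cell cannot be told apart.

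**Figure D1:**
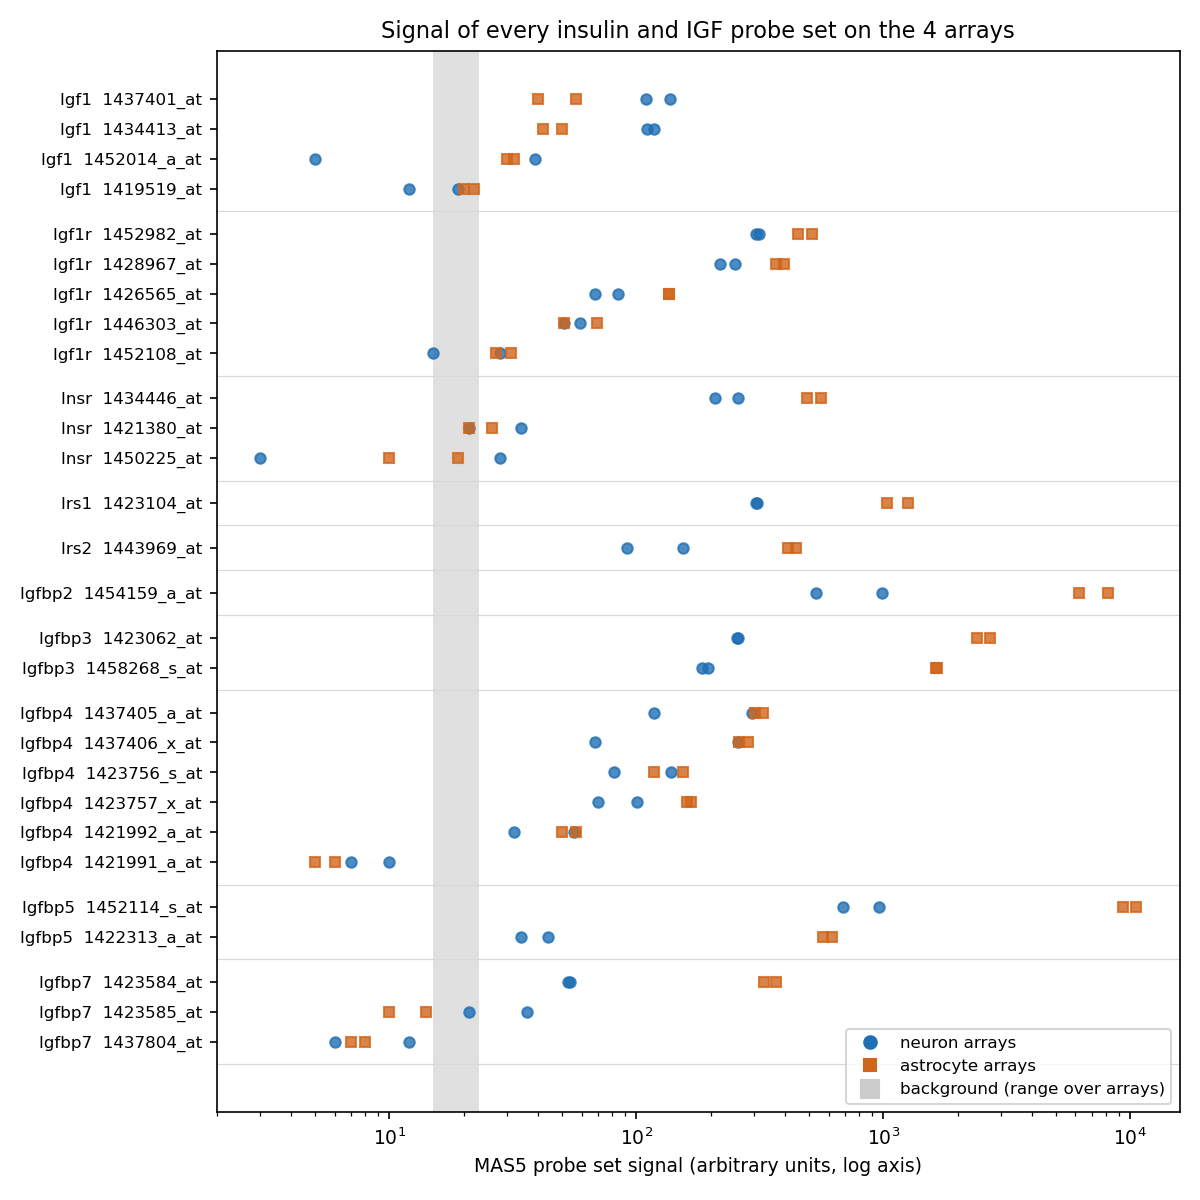
Signal of all 28 member probe sets (rows, grouped by gene, the gene's main probe set first) on each array, as MAS5 signal on a log axis; circles are the 2 neuron arrays, squares the 2 astrocyte arrays, and the grey band the array backgrounds, 15 to 23. The probe sets of Igfbp2, Igfbp3, Igfbp5 and Igfbp7 that were bright enough to be tested show the widest gaps, with both neuron arrays on the left. The upper 2 of the 4 Igf1 rows have their neuron arrays on the right; the dim rows of Igf1 and Igfbp7 do not follow their main probe sets.

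Igf1, the ligand, was higher in neurons. Its main probe set, 1437401_at, had signals of 137 and 109 in neurons and 40 and 57 in astrocytes, and 1434413_at had 118 and 110 against 50 and 42. Both probe sets separated the groups, at modest signals that were above background on every array. The main probe set was 2.23-fold higher in neurons (log2 fold change 1.16, 95% interval 0.64 to 1.67, adjusted p = 0.00227), and 1434413_at was 2.17-fold higher (adjusted p = 0.00136). When neurons replicate 1 was left out, the main probe set was no longer called (log2 fold change 1.01, adjusted p = 0.0652), nor was it when astrocytes replicate 1 was left out (0.96, adjusted p = 0.0552); 1434413_at was called whichever array was left out. The other 2 Igf1 probe sets lay close to background and were too dim for the main test: 1419519_at had 12 and 19 in neurons, against 22 and 20 in astrocytes, and 1452014_a_at had 5 and 39 against 32 and 30. The average of all 4 probe sets, 0.37 in log2 fold change, did not pass (adjusted p = 0.138; range over the alternatives 0.000409 to 0.138).

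Of the other ligands, Igf2, a growth factor of fetal tissues, had signals of 14 and 22 on the neuron arrays, under background on both, and 37 and 48 on the astrocyte arrays. It was at least 1.93-fold lower in neurons (adjusted p = 0.0220), where the bound is the astrocyte mean over the background of the neuron arrays. This call did not outlast the loss of any 1 array (adjusted p = 0.120 and 0.0531 with neurons replicate 1 or 2 left out, 0.0718 and 0.137 with astrocytes replicate 1 or 2 left out), nor that of the filter on dim probe sets (0.0741). Ins2, an insulin gene, was too dim to be tested (20 and 31 against 38 and 30), and no probe set was named for Ins1.

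The gene of the insulin receptor, Insr, was lower in neurons by its main probe set. The signals were 209 and 258 in neurons and 557 and 491 in astrocytes, so that the groups lay well apart. The difference was 2.19-fold (log2 fold change -1.13, 95% interval -1.49 to -0.77, adjusted p = 0.000330). The call held with any 1 array left out, with log2 fold changes of -1.27 to -0.99. The other 2 Insr probe sets, 1421380_at (21 and 34 against 26 and 21) and 1450225_at (28 and 3 against 19 and 10), lay near or under background with overlapping groups, and averaging all 3 gave -0.36 (adjusted p = 0.119; range over the alternatives 2.32e-05 to 0.119).

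Igf1r, which encodes the IGF1 receptor, was moderately lower in neurons by 3 of its 5 probe sets. The main probe set, 1452982_at, had 315 and 306 in neurons, against 514 and 453 in astrocytes. It was 1.53-fold lower in neurons (log2 fold change -0.62, 95% interval -0.93 to -0.30, adjusted p = 0.00474). The probe set 1428967_at (218 and 251 against 396 and 366) was 1.60-fold lower, and 1426565_at (68 and 84 against 135 and 136) 1.68-fold lower. These 3 probe sets did not overlap between groups, and their sizes were alike. Of the rest, 1446303_at did not pass (59 and 51 against 69 and 51, log2 fold change -0.09, 95% interval -0.61 to 0.42), and 1452108_at was too dim for the main test (28 and 15 against 31 and 27). Each of these 3 calls was lost without some array: the main probe set was not called without neurons replicate 2 (adjusted p = 0.0556) or astrocytes replicate 1 (0.0654), 1428967_at without astrocytes replicate 1 (0.0731) or 2 (0.0532), and 1426565_at without neurons replicate 1 (0.0536) or astrocytes replicate 1 (0.0800) or 2 (0.0830). The log2 fold change of the main probe set stayed between -0.71 and -0.49 over all alternatives. Igf2r, the receptor that takes up and clears IGF2, had 273 and 221 in neurons and 234 and 229 in astrocytes and did not pass (log2 fold change 0.08, adjusted p = 0.689).

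Both insulin receptor substrate genes were lower in neurons, by similar factors. Irs1 had signals of 308 and 306 in neurons, against 1038 and 1260 in astrocytes. It was 3.62-fold lower in neurons (log2 fold change -1.86, 95% interval -2.17 to -1.54, adjusted p = 8.41e-06). Irs2, whose transcription is known to be repressed by insulin in liver, had 154 and 92 in neurons and 413 and 445 in astrocytes. It was 3.35-fold lower in neurons (log2 fold change -1.74, 95% interval -2.25 to -1.24, adjusted p = 0.000198). The neuron arrays differed from each other for Irs2 and hardly for Irs1, and both calls held under every alternative tried, including each array left out. Each of these genes has 1 probe set, so no second reading was available. Insulin had been added to the neuron medium, and its part in the lower level of Irs2 was not tested.

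The promoter windows of Irs1 and Irs2 are shown because these adaptor genes moved together and their windows share a pair of adjacent motifs. RefSeq (GRCm38.p6) gave windows of 250 bases before to 50 after the start for 9 of the 10 members, all but Insr. Both strands were searched for the E-box CACGTG, the insulin response element core CAAAACA, the FoxO element GTAAACA, the GC box GGGCGG and the TATA box TATAAA. In the windows below, written 5′ to 3′ along the gene's strand, capitals mark these matches; CAAAACA appears as its reverse complement TGTTTTG. Irs1 lies at chr1:82291390-82291689 (minus strand) and Irs2 at chr8:11008880-11009179 (minus strand).
Irs1: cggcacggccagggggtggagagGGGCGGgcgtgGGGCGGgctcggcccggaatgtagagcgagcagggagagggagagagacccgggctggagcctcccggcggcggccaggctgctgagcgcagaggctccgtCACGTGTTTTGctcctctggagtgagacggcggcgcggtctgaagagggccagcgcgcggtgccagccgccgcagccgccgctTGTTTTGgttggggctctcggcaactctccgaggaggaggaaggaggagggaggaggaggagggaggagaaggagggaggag
Irs2: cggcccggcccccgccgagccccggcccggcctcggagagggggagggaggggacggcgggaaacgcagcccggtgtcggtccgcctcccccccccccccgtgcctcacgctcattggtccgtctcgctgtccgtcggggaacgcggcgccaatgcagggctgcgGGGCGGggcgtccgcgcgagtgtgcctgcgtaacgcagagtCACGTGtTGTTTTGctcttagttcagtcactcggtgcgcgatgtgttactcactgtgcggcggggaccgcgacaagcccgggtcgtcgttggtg

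In Irs1 the E-box spans positions -115 to -110 relative to the start and overlaps the insulin response element core at -111 to -105; a second core lies at -32 to -26. In Irs2 the E-box spans -44 to -39 and the core -37 to -31, without overlap. Of all 32851 windows in the table, 7.15% held CACGTG, 6.28% held CAAAACA on either strand, 0.408% held both, and 9 windows (0.0274%) held both with starts within 10 bases. That spacing was chosen after the windows had been read. None of the members' windows held GTAAACA, which 3.65% of all windows did, and among the members' other windows none held CAAAACA. These are matches of letters, not sites of binding.

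The largest differences were in the binding protein genes. Igfbp5 had signals of 688 and 957 in neurons, against 9313 and 10549 in astrocytes by its main probe set, 1452114_s_at. It was 12.04-fold lower in neurons (log2 fold change -3.59, 95% interval -3.95 to -3.23, adjusted p = 5.68e-07), and only 178 of the 12040 genes had a lower log2 fold change. Its second probe set, 1422313_a_at, was dimmer (44 and 34 against 572 and 617) and gave nearly the same factor, 11.8-fold (adjusted p = 8.46e-07). With an offset 4 times as large this dimmer probe set gave a log2 fold change of -2.86, against -3.56.

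Igfbp2, the main IGF binding protein of developing brain, had 992 and 534 in neurons and 6195 and 8139 in astrocytes. The replicates of each group differed clearly, but the groups lay far apart. Igfbp2 was 9.60-fold lower in neurons (log2 fold change -3.26, 95% interval -3.85 to -2.67, adjusted p = 1.17e-05), and with 1 array left out the log2 fold change lay between -3.70 and -2.82.

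Igfbp3, the chief carrier of IGFs in blood, had 259 and 255 in neurons, against 2705 and 2388 in astrocytes by 1423062_at. It was 9.48-fold lower in neurons (log2 fold change -3.24, 95% interval -3.53 to -2.96, adjusted p = 2.74e-07). The second probe set, 1458268_s_at, had 184 and 195 against 1631 and 1647 and was 8.18-fold lower (adjusted p = 3.91e-07). Both probe sets had close replicates and agreed in size. Of all genes tested, 2.67% were called at least 8-fold lower in neurons, and Igfbp2, Igfbp3 and Igfbp5 were among them.

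Igfbp7, a related secreted protein that binds IGFs weakly and is known from vessel walls, had 53 and 54 in neurons and 330 and 367 in astrocytes by 1423584_at. It was 5.46-fold lower in neurons (log2 fold change -2.45, 95% interval -2.83 to -2.07, adjusted p = 4.81e-06). Its other 2 probe sets did not repeat this: 1423585_at had 21 and 36 in neurons, against 10 and 14 in astrocytes, and 1437804_at had 12 and 6 against 7 and 8, under background on all arrays. Tested without the filter, neither passed (adjusted p = 0.135 and 0.811). The average of the 3 probe sets had a fold change of -0.55 in log2 (adjusted p = 0.0316; range over the alternatives 2.04e-09 to 0.0316).

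Igfbp4, whose product binds both IGFs, did not pass by its main probe set. The signals of 1437405_a_at were 295 and 118 in neurons and 301 and 327 in astrocytes, so that neurons replicate 1 lay just under the astrocytes and replicate 2 well below. The log2 fold change was -0.70 (95% interval -1.48 to 0.07, adjusted p = 0.107). It was -1.32 without neurons replicate 1 and -0.09 without neurons replicate 2, so the value depended on which neuron array was kept. The same split appeared in 1437406_x_at (259 and 68 against 282 and 260). Of the 6 Igfbp4 probe sets only 1423757_x_at was called (101 and 70 against 166 and 161, 1.82-fold lower in neurons, adjusted p = 0.00635), a call that needed astrocytes replicate 1 (0.104 without it) and 2 (0.0957 without it). The others, 1423756_s_at (138 and 81 against 118 and 154) and 1421992_a_at (56 and 32 against 57 and 50), overlapped between groups, and 1421991_a_at was under background on all arrays.

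**Figure D2:**
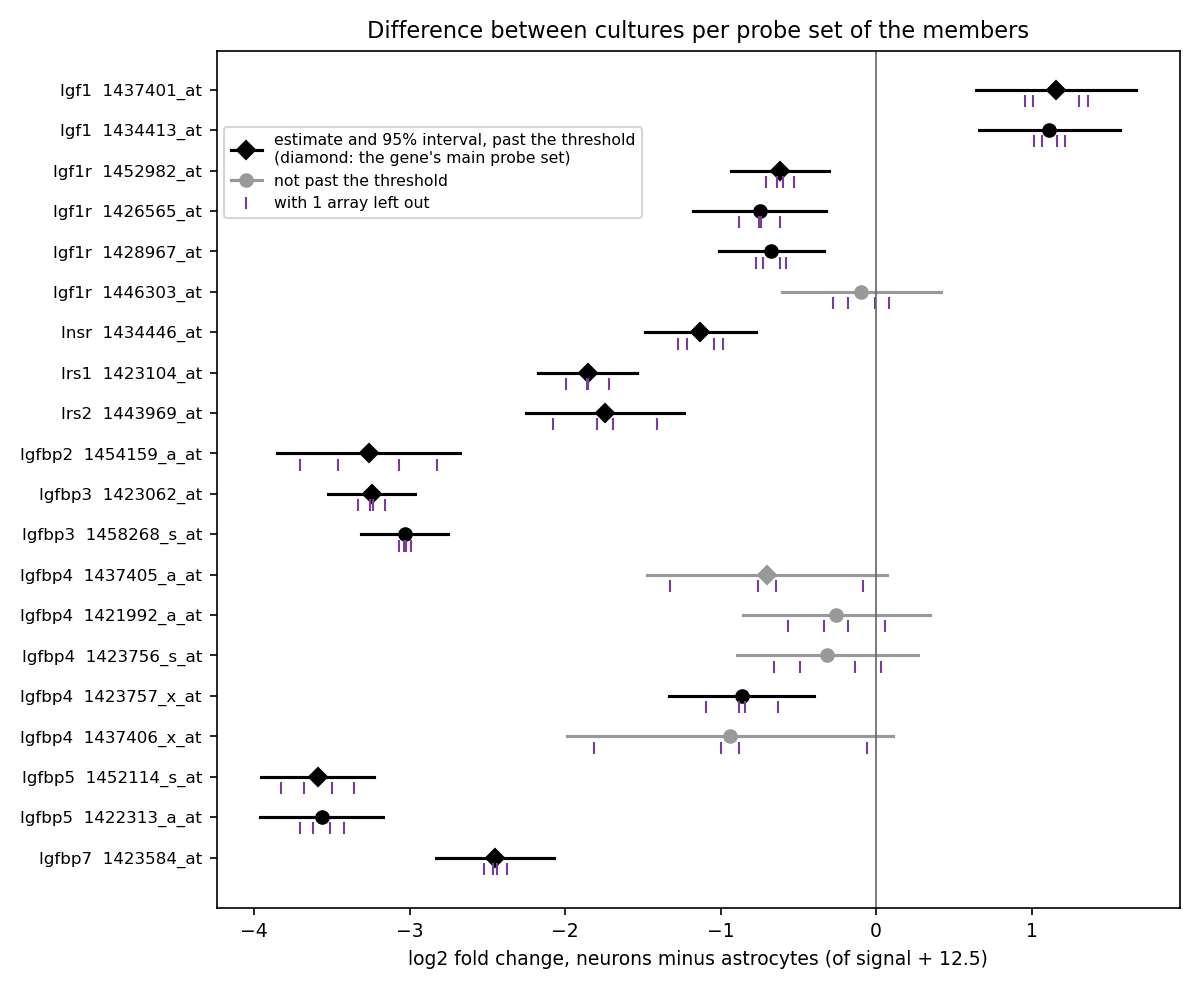
Log2 fold change (neurons minus astrocytes, of signal + 12.5) of the 20 member probe sets that were tested, with 95% intervals from limma; diamonds are each gene's main probe set, black marks an adjusted p under 0.05, and the small ticks are the values with 1 array left out. The ticks stay close to the estimate for Igfbp3 and Igfbp7; for Igfbp4 they spread from -1.32 to -0.09 in the main probe set and from -1.82 to -0.06 in 1437406_x_at.

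Other binding protein genes were read from lists of pathway genes. Igfbp6, which prefers IGF2, had 18 and 34 in neurons, against 67 and 81 in astrocytes, and was 2.29-fold lower in neurons (adjusted p = 0.00483), with 1 of the 2 neuron arrays above background. This call was lost without neurons replicate 1 (0.0531), astrocytes replicate 1 (0.0691) or astrocytes replicate 2 (0.101). Igfbp1, a binding protein known from liver, was under background on all arrays (1 and 2 against 2 and 2). In the mouse genome (GRCm38.p6) Igfbp1 and Igfbp3 are neighbouring protein-coding genes on chromosome 11, so that a gene called 9.48-fold lower in neurons lay beside one not above background in either culture. Igfbp2 and Igfbp5 are likewise neighbours, on chromosome 1, and were lower in neurons by 9.60-fold and 12.04-fold.

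Promoter windows of the neighbours Igfbp2 and Igfbp5 are shown because these genes changed by similar factors. The first of the 2 Igfbp2 windows differs from that of Igfbp5 in the motifs searched, and the second does not. Igfbp2 (first of its 2 windows, chr1:72824230-72824529, plus strand) holds an E-box at -142 to -137 and 3 GC boxes, with 67.0% G or C, and Igfbp5 (chr1:72874816-72875115, minus strand) holds none of the motifs searched, with 56.3% G or C. The second Igfbp2 window (chr1:72825137-72825436, plus strand, not shown) likewise holds none of these motifs, with 57.3% G or C. GC boxes occurred in 35.7% of all windows and TATA boxes in 13.6%.
Igfbp2: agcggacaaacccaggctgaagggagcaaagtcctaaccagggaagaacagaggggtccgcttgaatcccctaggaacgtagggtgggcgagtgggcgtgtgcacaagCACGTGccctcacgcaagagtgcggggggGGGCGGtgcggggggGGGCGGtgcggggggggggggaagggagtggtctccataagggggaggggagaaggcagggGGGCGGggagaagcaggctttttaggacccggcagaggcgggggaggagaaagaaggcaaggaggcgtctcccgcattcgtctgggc
Igfbp5: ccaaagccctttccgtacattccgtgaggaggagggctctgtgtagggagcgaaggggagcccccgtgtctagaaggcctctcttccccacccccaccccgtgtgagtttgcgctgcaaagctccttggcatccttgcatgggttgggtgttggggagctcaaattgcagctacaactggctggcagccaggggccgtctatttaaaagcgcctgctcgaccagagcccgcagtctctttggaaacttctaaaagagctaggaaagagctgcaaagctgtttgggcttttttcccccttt

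**Figure D3:**
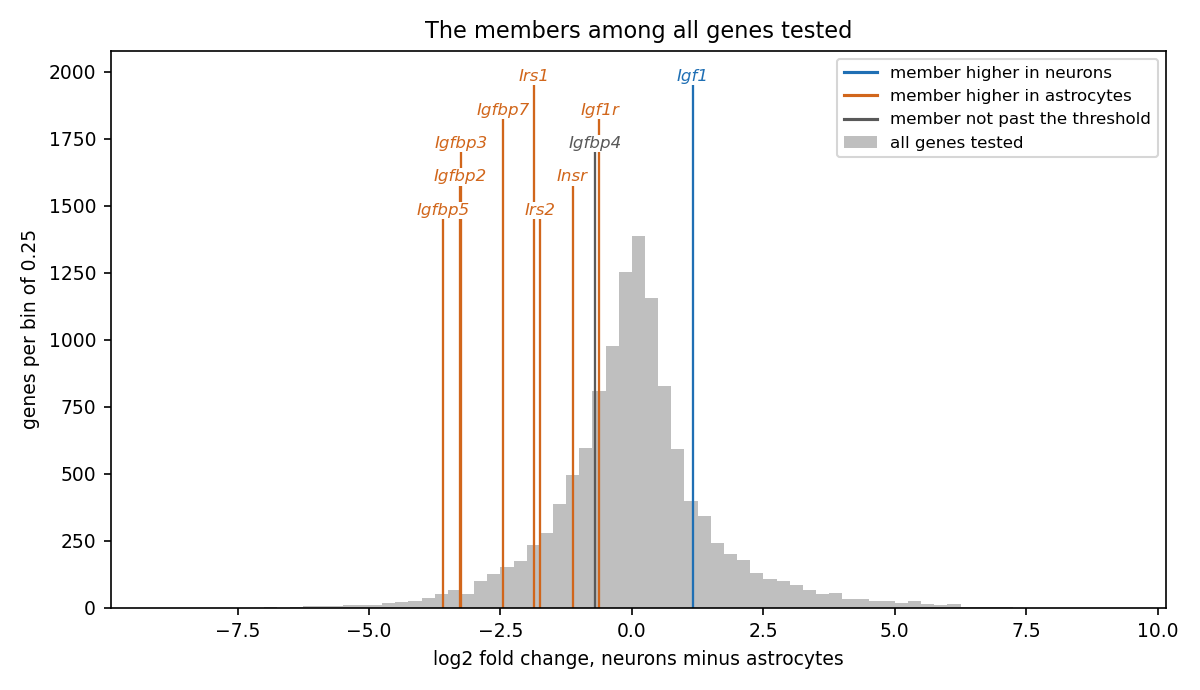
Distribution of the log2 fold change (neurons minus astrocytes) over all 12040 genes tested, in bins of 0.25, with a line for each of the 10 members. Igfbp5, Igfbp2, Igfbp3 and Igfbp7 lie in the left tail between -3.59 and -2.45, and Igf1, at 1.16, is the only member to the right of 0.

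Markers of most other cell types were, like most binding protein genes, more often lower than higher in neurons, except those of the oligodendrocyte lineage. Over all genes tested, 31.1% were called lower in neurons and 31.0% higher. Of 9 fibroblast and meningeal markers tested, 6 were lower in neurons and 2 higher. The summed signals over the 10 on the array were 1731 and 1855 in neurons and 4088 and 4302 in astrocytes. Most of the neuron sums was Pdgfra (1177 and 1302 against 19 and 21), which also marks the oligodendrocyte lineage; without it the sums were 554 and 553 against 4069 and 4281. Islr (29 and 32 against 2465 and 2689), the collagen gene Col1a2 (63 and 20 against 678 and 678) and the meningeal gene Foxc1 (8 and 13 against 368 and 326) made up most of the astrocyte sums and, like Otx2 and Folr1, are named after their values were seen. The collagen gene Col1a1 had 27 and 24 against 41 and 103, and Dcn, which was not called, 290 and 391 against 255 and 261. Of 4 endothelial and mural markers tested, 2 were lower in neurons, with sums of 231 and 567 against 5292 and 5432. These sums came mostly from the smooth muscle actin gene Acta2 (87 and 361 against 4544 and 4791), named after its values were seen; without it they were 144 and 206 against 748 and 641. The endothelial markers Pecam1 (18 and 3 against 4 and 2) and Cldn5 (4 and 14 against 22 and 11) were at or near background. Of 7 microglia and macrophage markers tested, 6 were lower in neurons, with sums of 170 and 221 against 946 and 907; C1qa had 2 and 2 against 124 and 156 and Csf1r 47 and 40 against 149 and 151. Of 5 ependymal and choroid plexus markers tested, 4 were lower in neurons, with sums of 237 and 187 against 1072 and 1105. Foxj1, a gene of ciliated cells, had 35 and 24 against 410 and 407. Of the choroid plexus genes, Otx2 (11 and 7 against 100 and 96) and Folr1 (27 and 38 against 59 and 72) were lower in neurons, and Ttr, too dim to be tested, had 44 and 19 against 14 and 11. Of 7 oligodendrocyte lineage markers tested, 4 were higher in neurons and 2 lower, with sums of 5705 and 4933 against 5550 and 6140. Mbp, a myelin gene, had 420 and 431 against 16 and 16. The 2 lower, named after their values were seen, were Cnp (366 and 500 against 1344 and 1536) and Olig1 (2899 and 1895 against 3500 and 3997). The part of these cells in the levels of the binding protein genes and of Igf1 was not tested.

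Of 83 further genes in 10 lists, 77 had a probe set named and 66 were bright enough to be tested; 22 were lower in neurons, 19 higher and 25 not called, and their median log2 fold change was 0.04. These counts are close to the shares over all genes tested, 31.1% lower and 31.0% higher in neurons. The counts of the single lists below stand against these same shares. Without neurons replicate 1 the count higher in neurons was 10 and without neurons replicate 2 it was 12; the count lower in neurons was 14 without astrocytes replicate 1 and 13 without astrocytes replicate 2.

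Among proteases that act on binding proteins and their inhibitors, Htra1, a secreted protease, was 3.49-fold lower in neurons (475 and 407 against 1511 and 1619, adjusted p = 6.47e-06). In that list 1 of the 5 genes tested was lower in neurons, 2 were higher and 2 were not called; the 2 higher, named here after their values were seen as are the further names below, were the insulin-degrading enzyme gene Ide and Stc1. The count higher was 1 with neurons replicate 1, neurons replicate 2 or astrocytes replicate 2 left out, 1 with the filter at the 75th percentile and 0 with the probe sets of a gene averaged. Of 12 adaptor genes tested, 5 were higher in neurons, 2 were lower and 5 were not called; those higher were Sh2b2, Dok4, Grb10, Grb14 and Shc2. The count higher in neurons was 3 when either neuron array was left out, and the count lower was 1 when either astrocyte array was; with the filter at the 75th percentile they were 3 and 1. Gab1, a docking protein, was 3.66-fold lower in neurons (345 and 379 against 1361 and 1354, adjusted p = 3.83e-06), opposite to Sh2b2, an adaptor of the insulin receptor. Sh2b2 had 56 and 63 in neurons, against 3 and 2 in astrocytes, under background there. Its neuron mean was 3.72 times the mean background of the astrocyte arrays (log2 fold change 2.26, 95% interval 1.68 to 2.84, adjusted p = 9.39e-05). Shc1, which links receptors to Ras, had 4 and 22 on the neuron arrays, under background, and 82 and 95 on the astrocyte arrays. Its astrocyte mean was 4.02 times the mean background of the neuron arrays (log2 fold change -2.08, 95% interval -2.87 to -1.28, adjusted p = 0.000983). The call of Shc1 was lost without astrocytes replicate 1 (0.0611) or 2 (0.0733), and its log2 fold change was -2.08 by the main probe set and -1.11 with its probe sets averaged.

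Over all genes tested, 31.0% were called higher in neurons and 31.1% lower. Of 9 PI3-kinase and Akt genes tested, 4 were higher in neurons, 2 were lower and 3 were not called. The 4 higher were Akt1, the regulatory subunit genes Pik3r1 and Pik3r2, and Pdpk1, the kinase that activates Akt; the 2 lower were Akt2 and the catalytic subunit gene Pik3cb. With 1 array left out the count higher in neurons lay between 1 (without neurons replicate 1) and 3, and the count lower was 0 without neurons replicate 2 or astrocytes replicate 2 and 1 without astrocytes replicate 1 or without probe sets that match several transcripts. Akt1 had 260 and 268 in neurons and 173 and 201 in astrocytes, 1.39-fold higher in neurons (adjusted p = 0.0277), whereas Akt2, the isoform known for insulin-stimulated glucose uptake, had 201 and 179 against 314 and 391, 1.80-fold lower in neurons (adjusted p = 0.00231). The Akt1 call was lost when any single array was dropped (adjusted p of 0.0667 to 0.145) or when its probe sets were averaged (0.0989). The Akt2 call was lost when replicate 2 of the neurons (0.0610) or of the astrocytes (0.0574) was dropped, and when probe sets that match several transcripts were (0.0995). Whether Akt1 and Akt2 differ from each other in their change was not tested.

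Further downstream, Foxo3, a FoxO transcription factor gene, had 247 and 240 in neurons, against 1109 and 1021 in astrocytes, and was 4.21-fold lower in neurons (adjusted p = 2.79e-06). Its log2 fold change was -2.07 by this probe set and -1.08 with its probe sets averaged. Foxo4 had 24 and 4, above background on 1 neuron array, against 53 and 102 (adjusted p = 0.00522), a call that was lost without the filter (0.0520), without neurons replicate 2 (0.113) and without either astrocyte array (0.0661 and 0.153). Of the 14 mTORC1 components and other Akt targets tested, 4 were lower in neurons, 3 were higher and 7 were not called. The 4 lower were Foxo1, Foxo3, Foxo4 and Eif4ebp1, the last a translation repressor gene, and the 3 higher were Gsk3a, Gsk3b and Tsc1. The count lower was 1 when either astrocyte array was left out or the filter was, and 2 without neurons replicate 2 or with probe sets averaged, and the count higher was 1 when either neuron array was left out. Among negative regulators, 4 of 9 were higher in neurons (Socs2, Phlpp2, Trib2 and the phosphatase gene Ptpn1) and 3 were lower (Socs3, Inppl1 and Phlpp1). Socs3, a cytokine-induced inhibitor that also binds the insulin receptor, had 37 and 34 in neurons and 491 and 481 in astrocytes and was 10.4-fold lower in neurons (adjusted p = 8.33e-07). Its log2 fold change was -3.38 by this probe set, -2.35 with its probe sets averaged and -1.31 without probe sets that match several transcripts. Of the IGF2 mRNA-binding protein genes the 1 tested did not pass.

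Genes known as FoxO targets were lower in neurons for the most part. Of 12 tested, 8 were lower in neurons, 1 was higher and 3 were not called, and their median log2 fold change was -1.12, against 0.02 over all genes, of which 31.1% were lower in neurons and 31.0% higher. The list was chosen with results of these data known. Gadd45a, a growth arrest gene that p53 also induces, had 38 and 45 in neurons, against 665 and 642 in astrocytes, and was 12.4-fold lower in neurons (adjusted p = 5.68e-07). Fbxo32, a ubiquitin ligase gene of muscle wasting, had 29 and 20 against 173 and 256, 6.08-fold lower in neurons (adjusted p = 3.21e-05). Pdk4, the pyruvate dehydrogenase kinase of fasting, had 27 and 15 against 215 and 162, 6.05-fold lower (adjusted p = 3.76e-05). For both Fbxo32 and Pdk4 only 1 of the 2 neuron arrays was above background. Txnip, a thioredoxin inhibitor gene that glucose also induces, had 149 and 214 against 836 and 992, 4.83-fold lower (adjusted p = 1.45e-05). Sesn1, a stress-induced inhibitor of mTORC1, had 350 and 389 against 1248 and 1405, 3.50-fold lower (adjusted p = 6.65e-06). These 5 genes were named by a rule that asked for groups that do not overlap, so their lack of overlap is no added support. The count of 8 lower in neurons was the same under every alternative fitted to all 4 arrays. The 1 called higher in neurons, the pro-apoptotic gene Bcl2l11, was lost without the filter, with the filter at the 75th percentile and with quantile normalization. It was also lost with probe sets averaged and with the replicate block. With an offset 4 times as large the log2 fold change of Gadd45a was -2.94 (-3.63 in the main fit), that of Fbxo32 -1.81 (-2.60) and that of Pdk4 -1.74 (-2.60). Added insulin, serum and glucose differed between the media, and their part in these levels cannot be told apart from cell type.

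**Figure D4:**
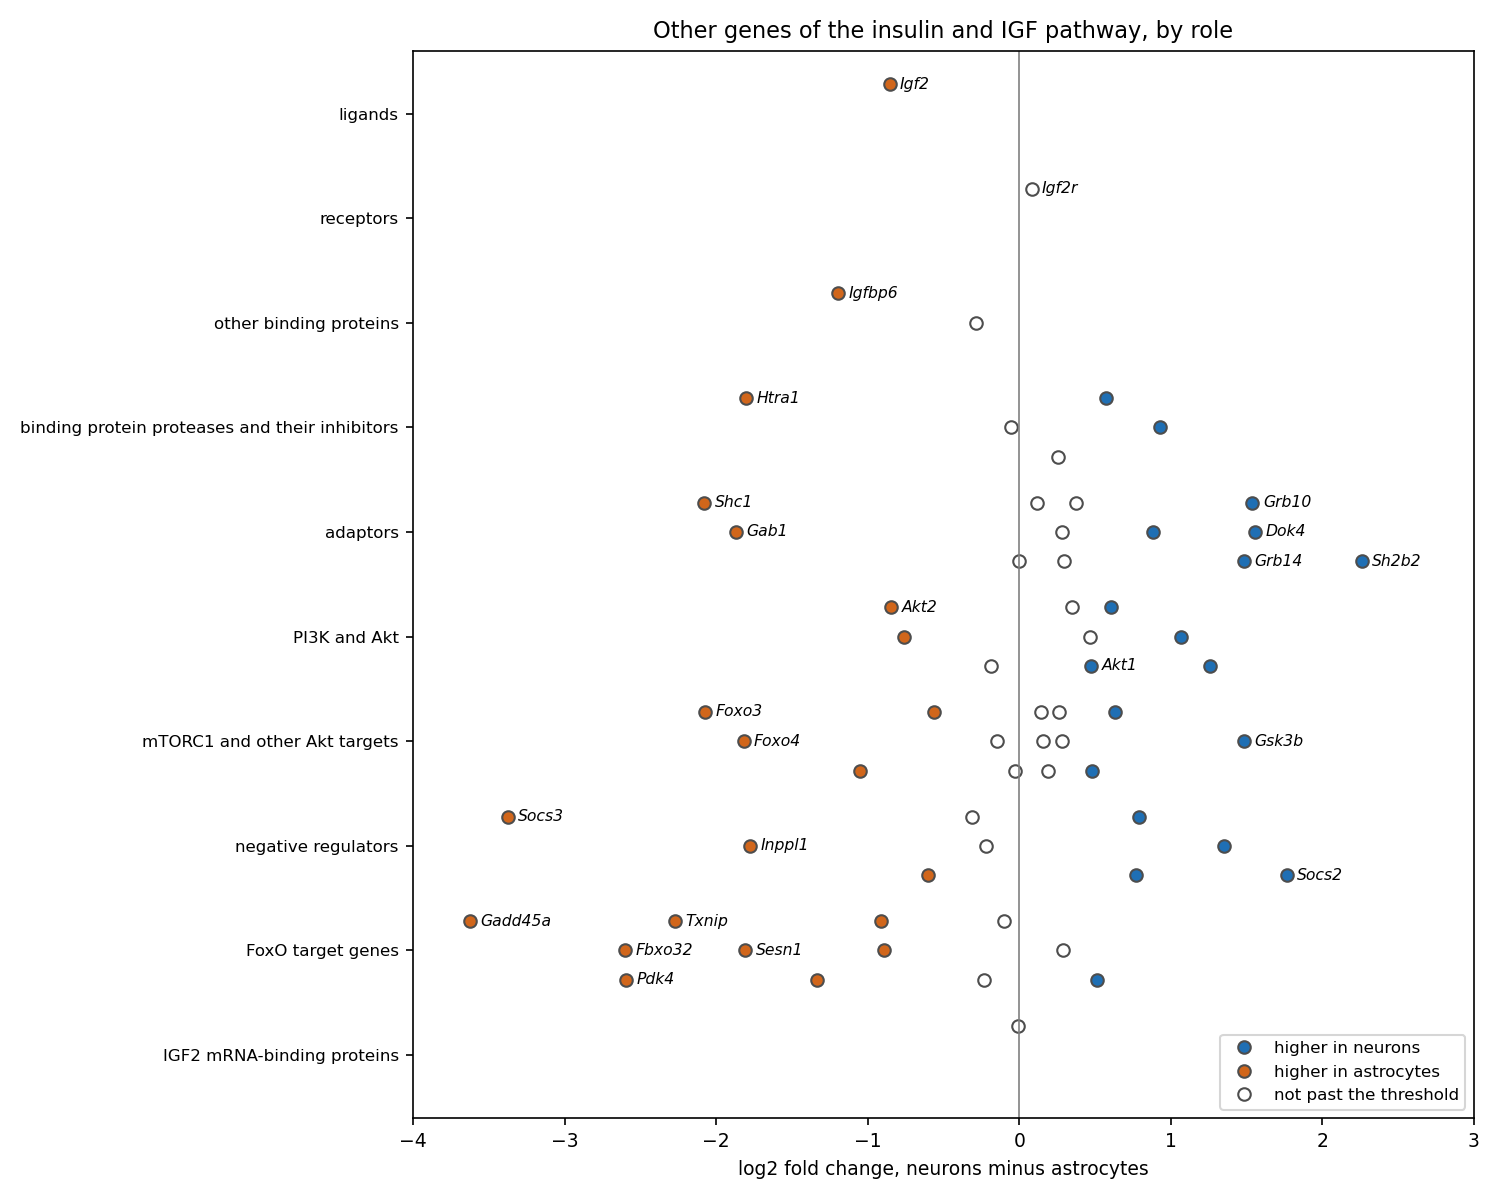
Log2 fold change (neurons minus astrocytes) of the 66 further pathway genes tested, 1 point a gene, in rows by role, staggered vertically within a row; blue is called higher in neurons, orange called lower in neurons and higher in astrocytes, open points were not called. The row of FoxO targets has 8 of 12 points called to the left of 0, while adaptors, kinases and negative regulators lie on both sides.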

How the data were processed

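From 50 ng of total RNA, cRNA carrying biotin was made in 2 cycles of cDNA synthesis and hybridised to Affymetrix arrays, per the labels' protocols; such amplification shortens products, which can dim probe sets far from the 3' end. The deposited values are probe set intensity on a linear scale, made by the authors with MAS5, per the submitters' processing notes (version not given in the sources used here), and scaled to a common trimmed mean of about 150.0 per array. Symbols came from the platform annotation, updated by Entrez identifier through RefSeq (34741 of 34945 probe sets with 1 symbol matched); 932 probe sets with several symbols named no gene.

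Values were used as log2(signal + 12.5), the offset being the median of the arrays' 25th percentiles; folds understate changes of dim genes. Probe sets at or above the array median on at least 2 of 4 arrays were kept (25019). Neurons were compared with astrocytes with limma 3.58.1 in R 4.3.3 (lmFit, then eBayes with its trend option; two-sided p-values, adjusted by Benjamini-Hochberg over the kept probe sets); the fit had 2 residual degrees of freedom, so the number of arrays limits the precision (median standard error 0.20 in log2). Background was each array's highest of 27 Bacillus subtilis controls, 21 and 23 on neuron arrays and 17 and 15 on astrocyte arrays. Ratios over the mean background of a group use it. The fit was tested on simulated data.

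The members and gene lists were chosen with earlier results of these data known. Named were all members, Igf2, Igf2r, Ins1, Ins2, Igfbp1, Igfbp6, Akt1, Akt2 and defining markers. Also named were the 12 largest called changes among the other pathway genes whose groups did not overlap. Alternatives varied the offset, filter, normalization, variance trend, probe set choice, arrays and replicate block.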

Additional observations from a re-analysis of the deposited data

How the results depend on the processing

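Of 129 values of member genes under the alternatives, 121 kept direction and side of the threshold, 6 missed a threshold that the main fit passed, 2 passed one that it missed (both Igfbp4) and none reversed; the 6 were of Igf1 (3), Igf1r (2) and Insr (1). The count of members higher in neurons was 1 in the main fit and 0 with a filter at the 75th percentile (0 probe sets, against 2), which leaves Igf1 untested, and 0 after averaging a gene's probe sets; without any 1 array it was 0 to 1, and that of probe sets 1 to 2. The count lower in neurons lay between 7 and 9 genes over all alternatives. With 1 array left out, 10 to 14 further pathway genes were higher in neurons (19 in the main fit) and 13 to 20 lower (22). Directions reversed only for values not called: Igf2r had a log2 fold change of -0.054 with probe sets averaged and -0.063 to 0.23 with 1 array left out, the Igfbp4 probe sets 1421992_a_at and 1423756_s_at had -0.57 to 0.056 and -0.66 to 0.030, highest without neurons replicate 2, and the Igf1r probe set 1446303_at had -0.27 to 0.086, highest without astrocytes replicate 1; the cause was not tested. Same-numbered arrays did not deviate together (correlation -0.09 across probe sets, which are not independent). With 2 arrays in each group this cannot decide whether the numbers pair the samples, and the main fit used no pairing. With the replicate number as a block, Igfbp4 had adjusted p = 0.0171 with the same log2 fold change of -0.70. Its probe set 1437406_x_at had 0.00518, and 9 members were lower in neurons. Dim probe sets depended on the offset: Sh2b2 had a log2 fold change of 3.48 with an offset 4 times smaller, 2.26 in the main fit and 1.06 with one 4 times as large.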
